A study of Mus musculus with 12 samples.

Results

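The genes described here encode 10 mitochondrial enzymes that break down the branched-chain amino acids leucine, isoleucine and valine. They were chosen by name, with earlier results of these data known. Each is read by 1 probe set among the 19938 genes measured on the array. Bcat2, Bckdha, Bckdhb, Dbt, Ivd, Mccc1, Mccc2, Acadsb, Pcca and Pccb were compared over 12 arrays of mouse RNA, 3 from each of 4 groups. In 3 groups fat cells had been made in culture, from 3T3-L1 cells, an established mouse fibroblast line, from mouse fibroblasts taken from embryos and not immortalised (PMEF, primary embryonic fibroblasts), and from embryonic stem cells of the mouse (ES). The last group, eWAT, was fat tissue taken directly from healthy wild-type animals, and the abbreviation usually stands for epididymal white adipose tissue. The series title sets cultured fat cells beside fat tissue. Culture times, drugs, and the strain, age and sex of the animals were not given by the sources used here, and the 3T3-L1 and ES groups each stand for cultures of 1 kind of starting cell. The design text calls the triplicates biological, with no word on pooling. Starting cell, culture and tissue differ together between groups, and their parts cannot be told apart.

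Branched-chain amino acids are essential, and fat cells take them up and oxidise them as they mature. The carbon can enter the citric acid cycle or be used to build fatty acids, and the odd-chain and branched fatty acids of fat tissue draw on the same intermediates. In the first step the aminotransferase BCAT2 moves the amino group away. The branched-chain ketoacid dehydrogenase complex then commits the carbon skeleton to breakdown, after which each amino acid follows a route of its own: isovaleryl-CoA dehydrogenase (IVD) and methylcrotonyl-CoA carboxylase serve leucine, ACADSB serves isoleucine, and propionyl-CoA carboxylase handles the propionyl-CoA from valine and isoleucine.

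All values are log2 intensities as deposited, so a difference of 1 is a 2-fold change. The brightness of a probe set depends on its sequence, and for that reason each gene is compared only with itself across groups. The threshold for a call was an adjusted p of 0.05 (Benjamini-Hochberg, over all genes) in a limma fit, and "rose" and "fell" are kept for such calls. Of all genes, 53.3%, 46.3% and 49.7% were called in 3T3-L1, PMEF and ES against eWAT, 50.1% and 43.4% in PMEF and ES against 3T3-L1, and 42.6% in ES against PMEF, so a call alone sets no gene apart and the size of each difference is given with it. Arrays of a group correlated at 0.992 to 0.997 across genes and arrays of different groups at 0.899 to 0.965. The fat cell genes Fabp4, Plin1 and Adipoq were bright in every group: Fabp4 was at 12.40 to 12.60, Plin1 at 10.87 to 12.01 and Adipoq at 11.49 to 12.44 as group means, with Cebpa lower in 3T3-L1 adipocytes at 7.57 against 9.67 to 10.61 elsewhere. Lep, the fat cell hormone leptin, was bright in eWAT alone, at 10.44, with 6.58 in ES, 5.75 in PMEF and 4.52 in 3T3-L1 adipocytes. Against eWAT 10 of 11 adipocyte markers fell in PMEF, 8 in 3T3-L1 and 6 in ES (21.6%, 22.5% and 20.9% of all genes). Markers of other cell types differed between the groups. The mean of 6 endothelial markers was 9.33 to 9.56 in eWAT arrays and 5.04 to 5.42 in all cultures. That of 7 macrophage markers was 9.22 to 10.20 and 5.35 to 6.19, but Cd68 of that list was higher in 3T3-L1, at 10.42 against 9.49 in eWAT. The mean of 7 fibroblast and progenitor markers was 11.49 to 11.54 in PMEF, 9.56 to 9.64 in ES, 7.70 to 7.73 in 3T3-L1 and 9.96 to 10.14 in eWAT arrays, and that of 6 mesothelial markers 7.81 to 7.95, 7.14 to 7.25, 5.27 to 5.33 and 5.33 to 5.60 in the same order. Smooth muscle markers had means of 9.02 to 9.27, 7.79 to 8.0, 6.18 to 6.29 and 8.75 to 8.81 in that order. The means of the epididymis and testis list lay at 4.57 to 4.80 in every array. Those of the pluripotency list were 4.84 to 5.02 in ES arrays and 4.32 to 4.70 in the others. Against eWAT 4 of its 6 genes rose in ES (28.8% of all genes), the largest being Sox2, at 5.63 against 4.01. The means of the liver list were 4.93 to 6.19 and those of the striated muscle list 5.78 to 6.65, both highest in eWAT. In each list 1 gene stood out there: Alb at 10.20 (5.02 to 6.24 in the cultures) and Myl1 at 9.39 (5.22 to 6.67). Ttr of the liver list was higher in ES, at 5.24 against 4.54 in eWAT. In such bulk RNA, fewer fat cells and less RNA per fat cell cannot be told apart. No cells were counted, and the part of other cell types in the results was not tested.

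The 10 genes did not move as 1 block. PMEF adipocytes had the lowest mean of all groups for 9 of the 10, and Pcca was lowest in 3T3-L1 adipocytes. At the top of the order, eWAT had the highest mean for 5 genes (Ivd, Mccc1, Mccc2, Acadsb and Pccb), ES adipocytes for 3 (Bckdhb, Dbt and Pcca) and 3T3-L1 adipocytes for 2 (Bcat2 and Bckdha). The top place of Bckdha in 3T3-L1 and that of Pcca in ES were not called over eWAT, nor were those of Bckdhb and Dbt in ES over 3T3-L1.

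**Figure D1:**
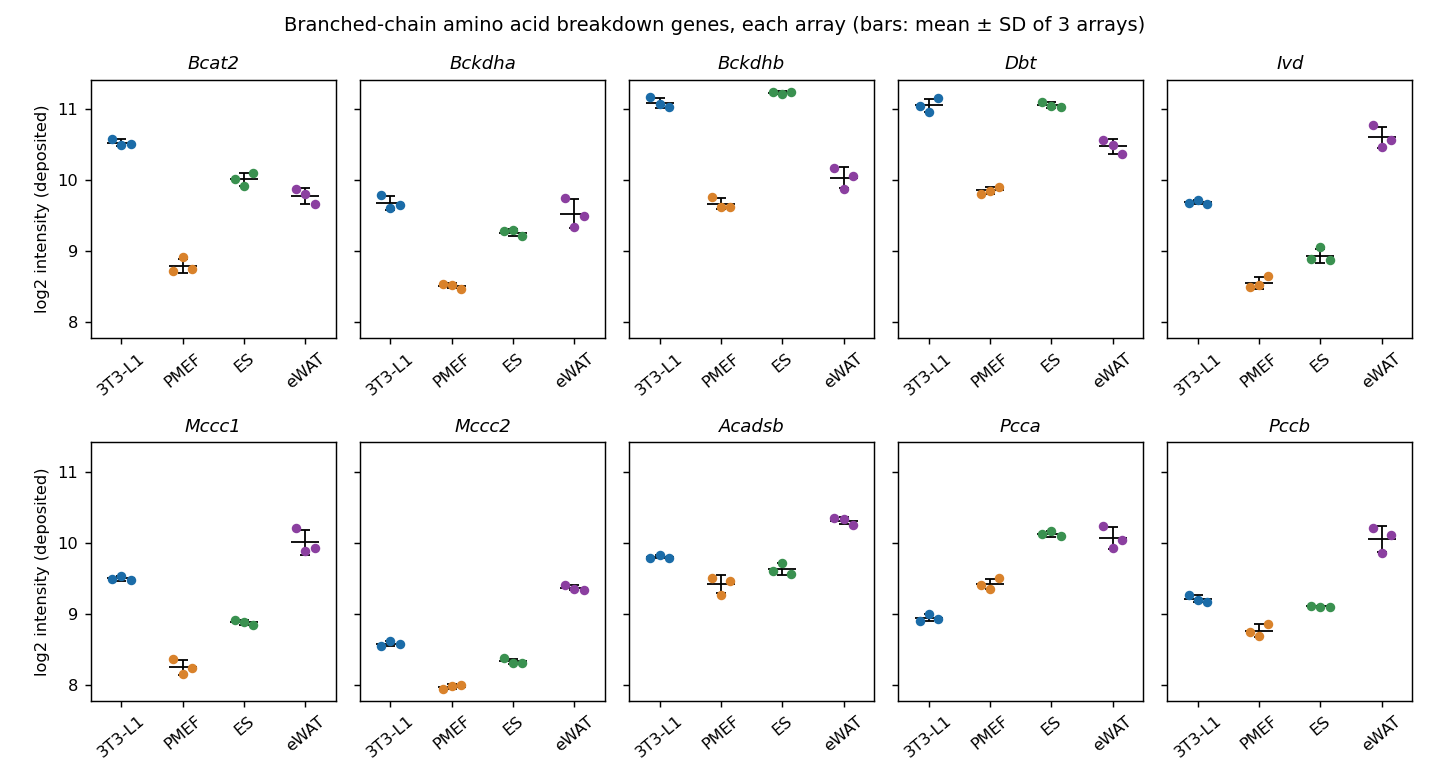
Deposited log2 intensity (vertical axis) of the 10 genes in each array of the 4 groups, with points for arrays and bars for the mean ± SD of 3 arrays. PMEF points lie lowest in every panel but Pcca, and eWAT points lie highest for Ivd, Mccc1, Mccc2, Acadsb and Pccb; panels share an axis, but levels of different genes are not comparable.

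Bcat2 encodes the mitochondrial aminotransferase that opens the pathway outside the brain. Its log2 intensity was 10.58, 10.49 and 10.51 in the 3T3-L1 arrays, 10.02, 9.91 and 10.10 in ES, 9.88, 9.80 and 9.66 in eWAT, and 8.72, 8.91 and 8.74 in PMEF. No 2 groups overlapped, with 3T3-L1 on top and PMEF well below every other array. Bcat2 rose by 0.74 ± 0.082 (log2, SE, n = 3 per group) in 3T3-L1 against eWAT and fell by 0.99 ± 0.082 in PMEF against eWAT (adjusted p = 3.33e-06 and 3e-07). Its small rise in ES against eWAT, 0.23 ± 0.082 (adjusted p = 0.0333), was lost in 10 of 22 other settings, among them without ES array 1 (0.0817) or 3 (0.128), or without eWAT array 2 (0.0552) or 3 (0.137), and it turned to -0.19 when 7 reference genes set the level of each array.

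The dehydrogenase complex has a decarboxylase made of an alpha and a beta subunit, from Bckdha and Bckdhb, and a core transacylase from Dbt that carries the intermediate on a lipoyl arm. Bckdhb read 11.17, 11.07 and 11.03 in 3T3-L1, 11.24, 11.21 and 11.24 in ES, 10.17, 9.88 and 10.05 in eWAT and 9.76, 9.62 and 9.62 in PMEF. The 3T3-L1 and ES arrays stood well above tissue, and PMEF arrays just below it. Bckdhb rose by 1.06 ± 0.081 in 3T3-L1 and by 1.20 ± 0.081 in ES against eWAT (adjusted p = 8.62e-08 and 3.99e-08), 2.08-fold and 2.30-fold, and fell by 0.37 ± 0.081 in PMEF (adjusted p = 0.00196). ES and 3T3-L1 differed by 0.15 ± 0.081, an interval of -0.03 to 0.32 (95%), which did not pass (adjusted p = 0.174), although their arrays did not overlap. It passed at 0.39 (adjusted p = 0.000438) with arrays centred on citric acid cycle genes and at 0.31 (0.00624) with the reference genes without Pgk1.

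Dbt behaved alike. Its values were 11.04, 10.96 and 11.15 in 3T3-L1, 11.10, 11.04 and 11.03 in ES, 10.57, 10.50 and 10.36 in eWAT, and 9.81, 9.85 and 9.90 in PMEF. The 3T3-L1 and ES arrays overlapped, above eWAT, and PMEF lay below. Against eWAT, Dbt rose by 0.57 ± 0.075 in 3T3-L1 and by 0.58 ± 0.075 in ES and fell by 0.63 ± 0.075 in PMEF (adjusted p = 1.72e-05, 2.05e-05 and 1.08e-05). When the reference genes set the level, both rises shrank, to 0.13 (adjusted p = 0.153) and 0.16 (0.0948), and neither passed. Without Pgk1, a glycolytic gene, among the reference genes they were 0.23 and 0.41 and both passed.

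Bckdha took another course. It read 9.79, 9.60 and 9.65 in 3T3-L1, 9.74, 9.34 and 9.50 in eWAT, 9.28, 9.29 and 9.21 in ES and 8.54, 8.52 and 8.47 in PMEF. The 3T3-L1 and eWAT arrays overlapped, ES arrays lay just under the lowest eWAT array, and PMEF arrays lay well below. Against eWAT the difference in 3T3-L1, 0.15 ± 0.093 (interval -0.05 to 0.36), did not pass (adjusted p = 0.189). That difference passed without eWAT array 1, the highest, at 0.26 (adjusted p = 0.0157), and with arrays centred on their medians, at 0.36 (0.00388), but was -0.29 (0.0131) when the reference genes set the level. Bckdha fell by 1.02 ± 0.093 in PMEF (adjusted p = 7.82e-07) and by 0.27 ± 0.093 in ES (0.0296). The fall in ES did not pass without any 1 of ES array 1, 2 or 3 (adjusted p = 0.0574, 0.0532 and 0.0905) or of eWAT array 1 (-0.16, 0.127) or 3 (0.051).

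The enzymes of leucine breakdown were highest in tissue. IVD oxidises isovaleryl-CoA, the leucine product of the dehydrogenase complex. Ivd was at 10.77, 10.47 and 10.56 in eWAT, 9.68, 9.72 and 9.66 in 3T3-L1, 8.89, 9.05 and 8.87 in ES and 8.49, 8.52 and 8.65 in PMEF. The 4 groups were fully apart in that order. Ivd had the largest difference from tissue among the 10 genes in PMEF and ES, where it fell by 2.05 ± 0.087 (4.13-fold, adjusted p = 3.6e-10) and 1.67 ± 0.087 (3.17-fold, adjusted p = 3.38e-09). In 3T3-L1 it fell by 0.91 ± 0.087 (adjusted p = 7.87e-07).

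Methylcrotonyl-CoA carboxylase, the next leucine enzyme, joins a biotin-carrying alpha subunit from Mccc1 to a beta subunit from Mccc2. Mccc1 was at 10.21, 9.88 and 9.93 in eWAT, 9.49, 9.53 and 9.47 in 3T3-L1, 8.91, 8.88 and 8.84 in ES and 8.36, 8.15 and 8.23 in PMEF. It fell against eWAT by 0.52 ± 0.087 in 3T3-L1, 1.13 ± 0.087 in ES and 1.76 ± 0.087 in PMEF (adjusted p = 0.000179, 1.52e-07 and 1.57e-09). Mccc2 was at 9.41, 9.35 and 9.34 in eWAT, 8.54, 8.61 and 8.58 in 3T3-L1, 8.37, 8.31 and 8.31 in ES and 7.94, 7.98 and 8.0 in PMEF. Both subunits kept the order of Ivd with no overlap between groups. Mccc2 fell against eWAT by 0.79 ± 0.061, 1.04 ± 0.061 and 1.39 ± 0.061 in 3T3-L1, ES and PMEF (adjusted p = 8.73e-08, 1.04e-08 and 4.53e-10).

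The promoters of these leucine genes are shown because the genes moved together, with Pearson r = 0.98 between Ivd and Mccc2 over the 12 arrays (a description, since arrays of a group share their source). RefSeq windows of 300 bases, from 250 before to 50 after an annotated start (build GRCm38.p6), were found for 9 of the 10 genes in 12 windows, and not for Dbt. Each line gives the 250 bases before the start, 5′ to 3′, with capitals for CCAAT (or ATTGG on the other strand), the box bound by the general factor NF-Y.

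Ivd, chr2:118861744-118861993, plus strand: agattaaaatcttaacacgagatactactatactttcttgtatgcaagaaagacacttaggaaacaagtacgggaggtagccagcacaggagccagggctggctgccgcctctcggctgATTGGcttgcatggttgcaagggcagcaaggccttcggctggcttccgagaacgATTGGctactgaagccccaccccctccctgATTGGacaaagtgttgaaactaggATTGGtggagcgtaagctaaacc

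Mccc1, chr3:36000679-36000928, minus strand: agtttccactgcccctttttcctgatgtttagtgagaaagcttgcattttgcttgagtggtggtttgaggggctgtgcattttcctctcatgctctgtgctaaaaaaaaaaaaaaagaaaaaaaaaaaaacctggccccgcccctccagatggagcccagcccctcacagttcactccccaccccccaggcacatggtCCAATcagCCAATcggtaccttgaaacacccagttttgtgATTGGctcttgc

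Mccc2, chr13:100015640-100015889, minus strand: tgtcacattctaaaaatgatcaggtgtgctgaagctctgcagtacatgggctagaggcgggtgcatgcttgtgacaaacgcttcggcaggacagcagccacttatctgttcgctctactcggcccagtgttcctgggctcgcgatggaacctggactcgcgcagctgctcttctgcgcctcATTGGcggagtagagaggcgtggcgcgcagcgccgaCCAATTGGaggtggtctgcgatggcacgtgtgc

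The Ivd window held 4 CCAAT matches, which began from -131 to -23 relative to the start, and the windows of Mccc1 and Mccc2 held 3 each, 2 of those in Mccc2 overlapping. At least 3 matches occurred in 3.37% of the 32851 windows of that length and at least 1 in 37.4%. The count of 3 was set after these windows were seen, and a match is a description of letters, not of binding. Acadsb and Pccb moved as closely with Mccc2 (r = 0.98 each), and their windows held no CCAAT match. Bckdhb, with r = -0.01 to Ivd and -0.03 to Mccc2, held 2 matches in 1 window and 1 in another.

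Acadsb encodes the short/branched-chain acyl-CoA dehydrogenase of isoleucine breakdown. It was at 10.35, 10.33 and 10.25 in eWAT, 9.79, 9.83 and 9.79 in 3T3-L1, 9.60, 9.72 and 9.56 in ES and 9.51, 9.27 and 9.46 in PMEF. Tissue was clear of all cultures. Acadsb fell by 0.51 ± 0.077 in 3T3-L1, 0.68 ± 0.077 in ES and 0.90 ± 0.077 in PMEF against eWAT (adjusted p = 6.57e-05, 5.96e-06 and 4.02e-07). ES and 3T3-L1 did not differ beyond the threshold (-0.17 ± 0.077, interval -0.34 to -0.01, adjusted p = 0.0918), but did with median centring (-0.38, adjusted p = 0.000819) or a trended and robust variance (-0.17, 0.0445).

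Propionyl-CoA carboxylase also pairs a biotin-carrying subunit, from Pcca, with a beta subunit, from Pccb, and here the subunits parted. Pcca read 10.12, 10.17 and 10.09 in ES, 10.24, 9.93 and 10.04 in eWAT, 9.41, 9.35 and 9.50 in PMEF and 8.90, 9.0 and 8.93 in 3T3-L1. ES and eWAT overlapped, while 3T3-L1 lay lowest. Pcca fell by 1.13 ± 0.081 in 3T3-L1 (2.18-fold, adjusted p = 4.52e-08) and by 0.65 ± 0.081 in PMEF (1.56e-05). In ES the difference from eWAT was 0.05 ± 0.081 (interval -0.12 to 0.23, adjusted p = 0.622), though -0.37 (0.00108) when the reference genes set the level. Pccb read 10.21, 9.85 and 10.11 in eWAT, 9.27, 9.20 and 9.17 in 3T3-L1, 9.11, 9.10 and 9.10 in ES and 8.74, 8.69 and 8.86 in PMEF. All cultures lay below tissue for Pccb, with falls of 0.84 ± 0.088 in 3T3-L1, 0.95 ± 0.088 in ES and 1.29 ± 0.088 in PMEF (adjusted p = 1.91e-06, 8.47e-07 and 3.95e-08).

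The promoters of this unequal pair are shown for the same 250 bases. Capitals mark CCAAT as above, the nuclear receptor hexamer AGGTCA (or TGACCT), and GCATGCGC (or GCGCATGC), the core of sites of NRF1, a regulator of mitochondrial genes. Pcca has another annotated start, whose window is not shown.

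Pcca, chr14:122484115-122484364, plus strand: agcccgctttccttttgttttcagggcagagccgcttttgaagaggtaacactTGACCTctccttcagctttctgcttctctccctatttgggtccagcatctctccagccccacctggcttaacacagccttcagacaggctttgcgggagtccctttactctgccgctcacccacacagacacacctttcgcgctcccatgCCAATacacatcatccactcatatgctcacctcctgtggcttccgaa

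Pccb, chr9:101034885-101035134, minus strand: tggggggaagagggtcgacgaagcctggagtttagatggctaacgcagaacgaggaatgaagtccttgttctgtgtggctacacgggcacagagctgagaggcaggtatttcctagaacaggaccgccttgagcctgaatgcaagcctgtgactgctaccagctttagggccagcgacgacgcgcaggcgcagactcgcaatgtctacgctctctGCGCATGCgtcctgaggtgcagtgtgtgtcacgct

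In the window shown, Pcca held 1 hexamer at -197 and 1 CCAAT at -47 relative to the start, and Pccb held the NRF1 core at -35. The Pcca window not shown held 1 hexamer at 6 and 1 CCAAT at -44. Which start is used in these samples was not tested. Over all windows, the hexamer occurred in 16.3% and the NRF1 core in 2.71%. Among the windows of the 9 genes, AGGTCA was found for Bckdhb and Pcca. Its longer form AAGGTCA (4.72% of all windows), which holds the hexamer, was found for none. TTGCNNCAA, the palindrome of C/EBP factors (2.08%), was found for Bckdha and the NRF1 core for Pccb. CCAAT was found for 5 genes (Bckdhb, Ivd, Mccc1, Mccc2 and Pcca) and the GC box GGGCGG (35.7%) for 4. Both strands were searched.

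Whether subunits of 1 complex changed unequally was tested on the difference of their log2 values within each array, which does not depend on how arrays are scaled. The size of such a difference says nothing by itself, and only its change between groups does. Each of 5 pairs was tested over the 4 groups with an exact permutation test of F over all 369600 arrangements of the arrays, where the smallest possible p is 6.49e-05. Pcca minus Pccb was -0.38, -0.21 and -0.24 in 3T3-L1, 0.67, 0.66 and 0.63 in PMEF, 1.01, 1.06 and 0.99 in ES and 0.03, 0.08 and -0.07 in eWAT. No groups overlapped, and ES and 3T3-L1 means were 1.29 apart (exact p = 6.49e-05, adjusted over the 5 pairs 0.000162). Bckdha minus Bckdhb was -0.51 ± 0.068 (SD, n = 3) in eWAT, -1.15 ± 0.055 in PMEF, -1.41 ± 0.052 in 3T3-L1 and -1.97 ± 0.054 in ES. All cultures thus held less Bckdha relative to Bckdhb than tissue did, by up to 1.47 in ES (exact p = 6.49e-05, adjusted 0.000162). Bckdha minus Dbt was -0.95 ± 0.179 in eWAT, -1.34 ± 0.077 in PMEF, -1.37 ± 0.128 in 3T3-L1 and -1.79 ± 0.035 in ES (exact permutation test, adjusted p = 0.000731). Bckdhb minus Dbt ran from -0.45 ± 0.160 in eWAT to 0.18 ± 0.037 in ES, with 3T3-L1 at 0.04 ± 0.137 and PMEF at -0.19 ± 0.117 (exact permutation test, adjusted p = 0.00117). Mccc1 minus Mccc2 was 0.92 ± 0.030 in 3T3-L1, 0.64 ± 0.138 in eWAT, 0.55 ± 0.023 in ES and 0.27 ± 0.128 in PMEF (exact permutation test, adjusted p = 0.000433), with the ES arrays inside the range of eWAT.

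**Figure D2:**
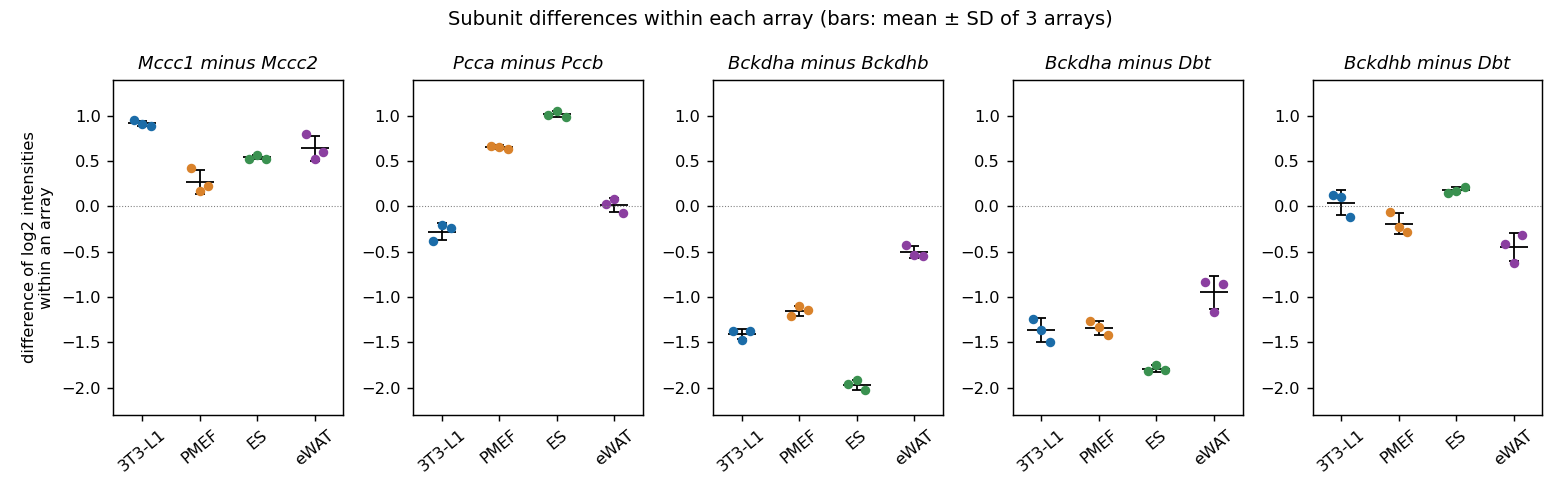
Difference of 2 subunits' log2 intensities within an array (vertical axis) for 5 subunit pairs in the 4 groups, with points for arrays and bars for the mean ± SD of 3 arrays. Pcca minus Pccb runs from -0.27 in 3T3-L1 to 1.02 in ES, and Bckdha minus Bckdhb is highest in eWAT at -0.51.

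The comparison of each culture model with tissue can be read across all 10 genes. In PMEF adipocytes 10 of 10 fell and none rose, where 21.6% of all genes were called lower and 24.7% higher, and the median of the 10 differences was -1.0 against 0.05 over all genes. In 3T3-L1 adipocytes 6 fell and 3 rose (all genes 22.5% lower and 30.8% higher), with a median of -0.51 against 0.05. In ES adipocytes 6 fell and 3 rose (20.9% lower and 28.8% higher), with a median of -0.47 against 0.04. The 3 comparisons share the eWAT arrays. The 11 adipocyte markers had median differences of -0.76 in PMEF, -0.95 in 3T3-L1 and -0.23 in ES, and their part in these falls was not tested. At least 2-fold calls numbered 5 in PMEF, 4 in ES and 2 in 3T3-L1 (10.4%, 10.2% and 14.5% of all genes). The arrays did not overlap with those of eWAT for 10 genes in PMEF, 9 in 3T3-L1 and 9 in ES (51.9%, 59.1% and 57.9% of all genes). Within eWAT, array 1 had the highest mean over the 10 genes, 10.16 against 9.93 and 9.98, together with the highest mean of adipocyte markers, 11.85 against 11.70 and 11.69, and the lowest mean of macrophage markers, 9.22 against 9.87 and 10.20. The part of this in the results was not tested, but all 10 falls in PMEF were called without eWAT array 1 as well.

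Among the models, PMEF adipocytes stood apart. Against 3T3-L1 adipocytes 9 of the 10 fell (27.8% of all genes) and Pcca rose by 0.48 ± 0.081 (22.3% rose), and the largest fall was that of Bcat2, at -1.74 ± 0.082 (3.33-fold). The direction of the 2 smallest falls, Acadsb at -0.39 ± 0.077 and Pccb at -0.45 ± 0.088, turned to 0.15 and 0.09 when arrays were centred on citric acid cycle genes, and neither then passed. The Mccc2 fall, -0.60 ± 0.061, was -0.06 there (adjusted p = 0.421), which left 6 falls. With the reference genes 7 falls were called, since Acadsb (-0.11, adjusted p = 0.191) and Pccb (-0.17, 0.102) did not pass. Of all called genes, 89.1% were rises with citric acid cycle centring and 77.2% with the reference genes, from 44.6% with the values as deposited. ES adipocytes exceeded PMEF adipocytes in 10 of 10 genes (23.6% of all genes were called higher and 19% lower), by 0.22 ± 0.077 for Acadsb to 1.57 ± 0.081 for Bckdhb. Acadsb was the least secure: its call was lost without PMEF array 2 (0.15, adjusted p = 0.165), ES array 1 (0.23, 0.0641) or ES array 2 (0.17, 0.14), and its value turned to -0.05 and -0.08 when arrays were centred on reference genes or on citric acid cycle genes. With either of these centrings 6 of the 10 rose, the others being Ivd, Mccc2, Acadsb and Pccb. Rises then made up 17.5% (reference genes) and 15.1% (citric acid cycle genes) of all called genes, from 55.4% with the values as deposited. ES and 3T3-L1 adipocytes were closer, with 5 genes lower and 1 higher in ES (23% and 20.4% of all genes). The 1 higher gene was Pcca, at 1.18 ± 0.081 (2.27-fold), and the largest fall was that of Ivd, at -0.75 ± 0.087. At least 2-fold calls numbered 6 in PMEF and 1 in ES against 3T3-L1 and 3 in ES against PMEF (12.5%, 8.14% and 6.71% of all genes). The arrays did not overlap for 10, 9 and 10 genes in the same order (56.5%, 55.4% and 52.4%).

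**Figure D3:**
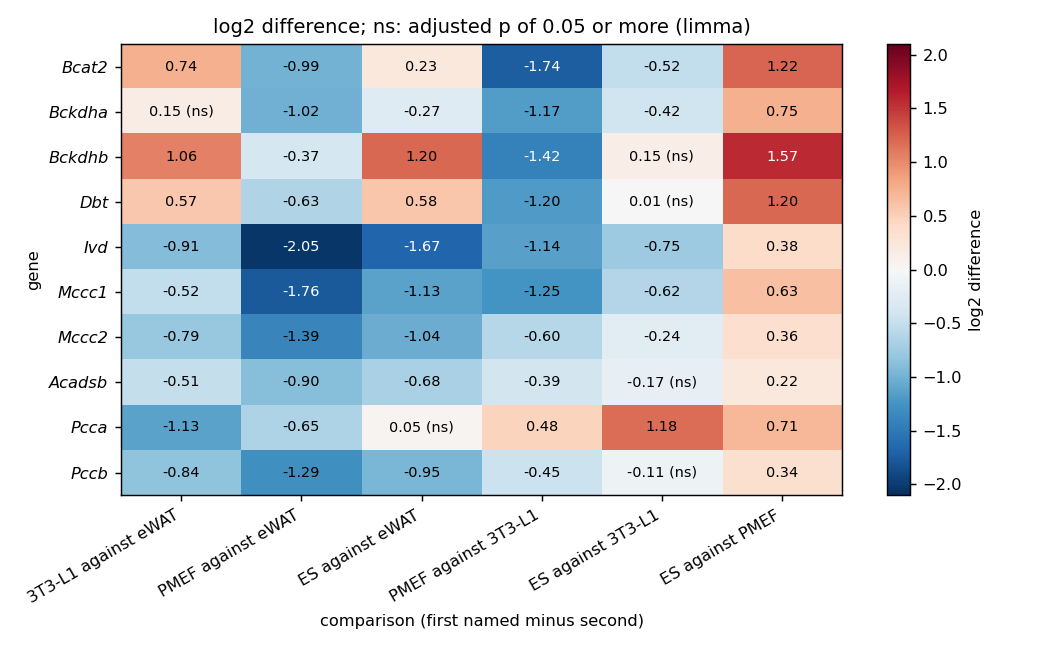
log2 differences (colour and printed value, first group minus second) of the 10 genes (rows) in the 6 comparisons (columns), with ns where the adjusted p was 0.05 or more. The PMEF against eWAT column holds only falls, and Bcat2, Bckdhb and Dbt fall there while they rise in 3T3-L1 and ES against eWAT, the Bcat2 rise in ES turning to -0.19 under reference gene centring.

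The remaining enzymes of the pathway were followed as a list, of which 12 of 13 were measured under a symbol of their own. In PMEF against eWAT 9 of 12 fell and none rose (median -0.57), in ES 7 fell and 1 rose (-0.23), and in 3T3-L1 4 fell and 5 rose (-0.09). Of all genes, 21.6%, 20.9% and 22.5% fell and 24.7%, 28.8% and 30.8% rose in PMEF, ES and 3T3-L1. Aldh6a1, the dehydrogenase of late valine breakdown, was at 11.23, 11.15 and 11.19 in eWAT, 10.97, 10.89 and 10.87 in 3T3-L1, 10.29, 10.18 and 10.20 in ES and 9.76, 9.61 and 9.78 in PMEF. It fell in all models, by 1.47 ± 0.069 in PMEF, 0.97 ± 0.069 in ES and 0.28 ± 0.069 in 3T3-L1. Auh, the hydratase that follows methylcrotonyl-CoA carboxylase in leucine breakdown, also fell in each, by 1.0 ± 0.099, 0.59 ± 0.099 and 0.49 ± 0.099. Hibch, a hydrolase of valine breakdown, fell by 1.26 ± 0.072 in PMEF and 0.61 ± 0.072 in ES, and was at -0.09 ± 0.072 in 3T3-L1 (adjusted p = 0.341). Mmut, the vitamin B12 enzyme that ends the propionyl route, fell by 0.86 ± 0.076 in PMEF, was at -0.15 ± 0.076 in ES (adjusted p = 0.118) and rose by 0.43 ± 0.076 in 3T3-L1, a rise that became -0.01 when the reference genes set the level. Acad8, the acyl-CoA dehydrogenase of valine, passed in none of the 6 comparisons, with group means of 8.29 to 8.40. Bcat1, the cytosolic aminotransferase, was at 7.92, 8.12 and 7.93 in 3T3-L1, 7.46, 7.65 and 7.43 in ES, 6.87, 6.90 and 6.82 in PMEF and 6.67, 6.75 and 6.93 in eWAT. Bcat1 rose against eWAT by 1.20 ± 0.089 in 3T3-L1 and 0.73 ± 0.089 in ES and was at 0.08 ± 0.089 in PMEF (adjusted p = 0.507).

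The genes that control the pathway were lower in the cultures where they changed. Klf15, a transcription factor known to drive amino acid breakdown genes, was at 8.53, 8.61 and 8.90 in eWAT, 7.74, 7.81 and 7.91 in 3T3-L1, 7.38, 7.31 and 7.20 in ES and 6.74, 6.87 and 6.59 in PMEF. The Klf15 groups did not overlap. Their order was also that of Ivd, Mccc1 and Mccc2, and of genes outside leucine breakdown such as Acadsb, Pccb and Aldh6a1. Any link between Klf15 and these genes was not tested. Klf15 fell against eWAT by 0.86 ± 0.103, 1.39 ± 0.103 and 1.95 ± 0.103 in 3T3-L1, ES and PMEF (adjusted p = 6.99e-06, 1.01e-07 and 2.96e-09). Bckdk, the kinase that switches the dehydrogenase complex off, fell by 0.43 ± 0.074 in 3T3-L1 and 0.35 ± 0.074 in PMEF and was at -0.14 ± 0.074 in ES (adjusted p = 0.132). Ppm1k, the phosphatase that switches it on, fell in PMEF by 0.62 ± 0.079 and was at 0.05 ± 0.079 in 3T3-L1 (adjusted p = 0.668) and -0.12 ± 0.079 in ES (0.22).

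**Figure D4:**
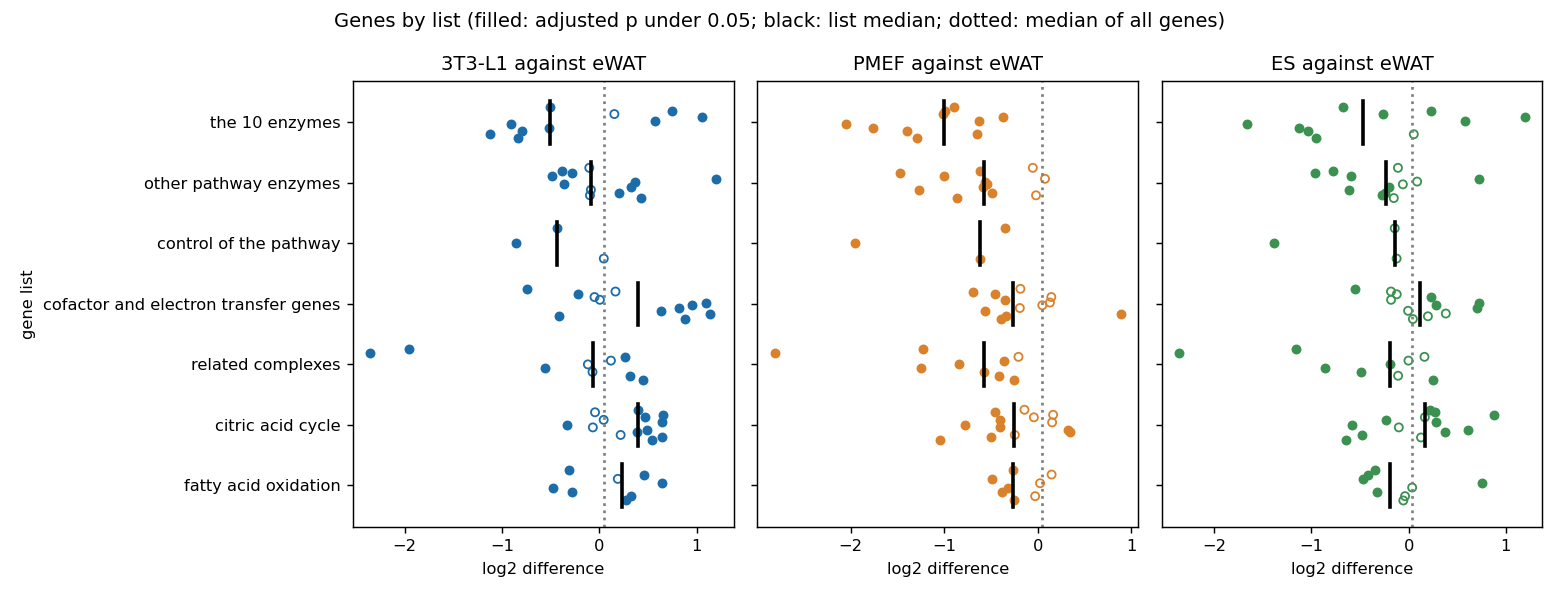
log2 difference from eWAT (horizontal axis) of each gene in 7 lists (rows) for 3T3-L1, PMEF and ES adipocytes, filled where the adjusted p was under 0.05, with black lines for list medians and dotted lines for the median of all genes. The median of the 10 enzymes in PMEF, -1.0, lies further below tissue than those of the related complexes, -0.57, and the citric acid cycle, -0.25.

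The carriers that bring branched-chain amino acids into the cell included large differences from tissue, in both directions. Slc7a5, the light chain of the main exchanger for large neutral amino acids, was at 11.06, 11.08 and 11.11 in 3T3-L1, 9.73, 9.77 and 9.72 in ES, 8.17, 8.25 and 8.20 in PMEF and 5.93, 6.72 and 6.85 in eWAT. Every culture array lay above every eWAT array. Slc7a5 rose by 4.59 ± 0.171 in 3T3-L1 (24-fold), 3.24 ± 0.171 in ES and 1.70 ± 0.171 in PMEF. Its partner chain Slc3a2 rose by 1.34 ± 0.068 in 3T3-L1 and 0.25 ± 0.068 in ES (-0.18 when the reference genes set the level) and was at -0.14 ± 0.068 in PMEF (adjusted p = 0.108). Slc7a8, a related exchanger, and Slc43a1, a facilitating carrier, fell in all 3, by 2.70 ± 0.134 and 3.00 ± 0.113 in 3T3-L1, by 0.98 ± 0.134 and 1.71 ± 0.113 in PMEF and by 1.55 ± 0.134 and 1.75 ± 0.113 in ES. The Slc7a8 values in 3T3-L1 were low, at 5.52, 5.27 and 5.34, and how far they lay above background was not assessed. If they lay at background, that difference would be understated. Slc25a44, a carrier of branched-chain amino acids into mitochondria, fell by 0.31 ± 0.089 in 3T3-L1 and was at -0.15 ± 0.089 in PMEF (adjusted p = 0.184) and 0.09 ± 0.089 in ES (0.457).

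**Figure D5:**
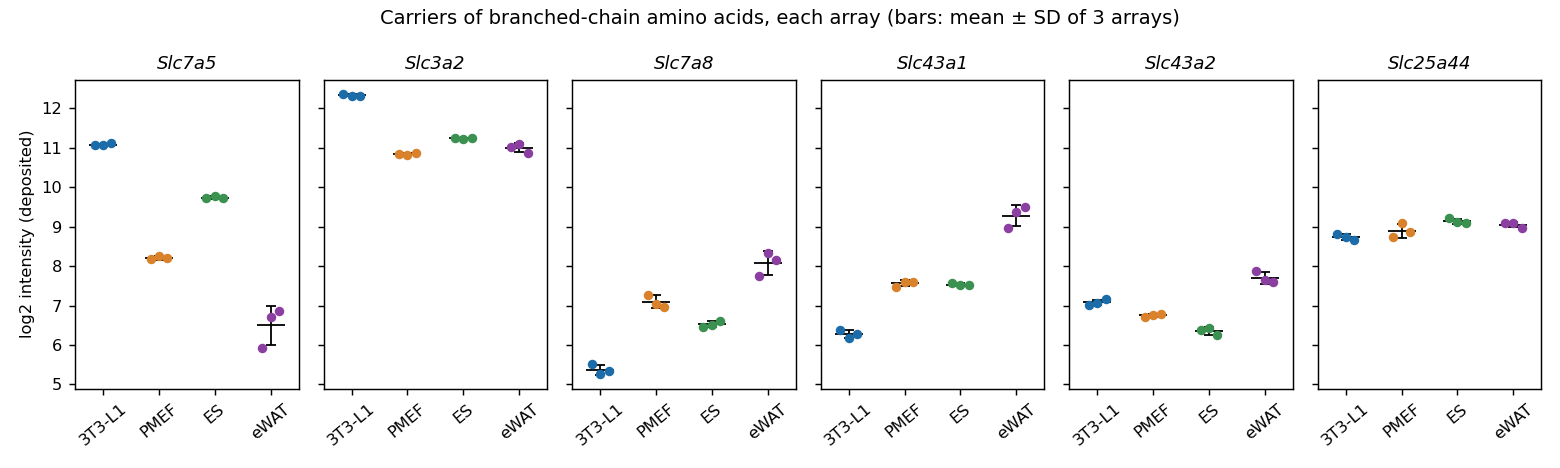
Deposited log2 intensity (vertical axis) of 6 amino acid carriers in each array of the 4 groups, with points for arrays and bars for the mean ± SD of 3 arrays. Slc7a5 is lowest in eWAT (mean 6.50) and highest in 3T3-L1 (11.08), while Slc43a1 is highest in eWAT (9.28); levels of different genes are not comparable.

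Other mitochondrial lists give the scale of change around the pathway. Of 13 citric acid cycle genes, 6 fell and 2 rose in PMEF against eWAT (median -0.25), 1 fell and 8 rose in 3T3-L1 (0.40), and 4 fell and 6 rose in ES (0.17). Of 8 fatty acid oxidation enzymes, 5, 3 and 4 fell and 0, 4 and 1 rose in PMEF, 3T3-L1 and ES, with medians of -0.26, 0.23 and -0.19. The shares of all genes that fell and rose were 21.6% and 24.7% in PMEF, 22.5% and 30.8% in 3T3-L1, and 20.9% and 28.8% in ES. The rises are the less certain side, since they moved with the centring. When the reference genes set the level, the citric acid cycle median was -0.04 in 3T3-L1 and -0.26 in ES. The fatty acid oxidation median was then -0.21 in 3T3-L1. Under median centring the 2 medians in 3T3-L1 were 0.61 and 0.44. With the reference genes without Pgk1 they were 0.06 and -0.11. In 3T3-L1 the median of the remaining pathway enzymes was 0.12 under median centring and -0.53 with the reference genes. With arrays centred on the citric acid cycle genes, a setting added after the data were seen, the median of the 10 enzymes against eWAT was -0.77 in PMEF, -0.82 in 3T3-L1 and -0.54 in ES. In that setting 9 of 10 still fell in PMEF, Bckdhb being the exception at -0.14 (adjusted p = 0.105). Rises made up 81.2% of all called genes there, from 53.4% with the values as deposited.

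Over the 12 arrays the 45 pairs among the 10 genes had Pearson r from -0.15 (Bcat2 with Pcca) to 0.98, with a median of 0.47. Mccc1 followed the mean of the other 9 most closely (r = 0.93) and Pcca least (0.18). By r with the mean of the 10 standardised genes, the gene most alike outside the pathway was Uck1, a uridine-cytidine kinase (0.995). Next came Tmcc3 (0.988), Ogdh, the first subunit of the oxoglutarate dehydrogenase complex (0.984), N4bp2l1 (0.984), Creb1 (0.982) and Slc2a4, the insulin-responsive glucose transporter (0.982). Ptch1 (0.980), Cnnm2 (0.978), Parp16 (0.978) and Mtor, a growth kinase (0.976), followed. These values describe 12 arrays in 4 groups, in which arrays of a group share their source. Slc2a4 had group means of 10.58 in eWAT, 10.17 in ES, 10.07 in 3T3-L1 and 8.94 in PMEF, and Ogdh had 11.33, 11.15, 11.22 and 10.50.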

How the data were processed

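Per the labels, biotin-labelled cDNA from TRIzol-extracted total RNA was hybridised to Affymetrix arrays. The deposited table holds log2 intensities of 35556 probe sets, from 1.11 to 13.48, processed by the authors. The sources used here name neither a normalization nor the software, and log2 was read from the range. Values were used as deposited. The 21789 probe sets with 1 gene symbol were kept (21698 matched to RefSeq by Entrez ID), those with several (1621) or none (12146) left out, and the brightest stood for the 999 genes with more than 1, leaving 19938 genes with no filter on dim ones.

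A model of 4 groups was fitted to the 12 unpaired arrays with limma 3.58.1 in R 4.3.3 (8 residual and 4.88 prior degrees of freedom) and tested on simulated data. Standard errors are moderated, and the number of arrays limits precision. P-values measure the spread between these samples only. Subunit differences had exact permutation tests. The text could name the 10 enzymes, genes of fixed lists and the 10 genes most alike. The enzymes and lists were chosen with earlier results of these data known. The alternatives were other normalization, centring, filtering, probe set and variance settings, a replicate block, and leaving out each array.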

Additional observations from a re-analysis of the deposited data

Results flagged for a closer look

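Bcat2, Bckdhb and Dbt were called in opposite directions against eWAT in different models, higher in 3T3-L1 and ES adipocytes and lower in PMEF adipocytes. The differences between the models follow from that choice of genes and are given as a description. PMEF minus 3T3-L1 was -1.74 ± 0.082 for Bcat2, -1.42 ± 0.081 for Bckdhb and -1.20 ± 0.075 for Dbt (log2, SE, n = 3 per group). ES minus PMEF was 1.22 ± 0.082, 1.57 ± 0.081 and 1.20 ± 0.075. The rise of Bcat2 in ES against eWAT was lost in 10 of 22 other settings. The rises of Dbt were lost with the reference genes (0.13 in 3T3-L1, adjusted p = 0.153, and 0.16 in ES, 0.0948), and the fall of Bckdhb in PMEF with citric acid cycle centring (-0.14, 0.105).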

How the results depend on the processing

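Each of the 60 differences was refitted in 22 other settings, and 40 kept direction and call in all of them. Without the 4 centrings, 6 changed call somewhere and none reversed. Not all settings could move a difference. Each of the 10 genes has 1 probe set, so the mean of probe sets repeats their values, also in the subunit tests below. Leaving out an array of a group outside a comparison changes only the error of that difference. Arrays centred on 7 reference genes shifted the median of all genes to -0.394 (3T3-L1), -0.11 (PMEF) and -0.387 (ES) against eWAT, from 0.046, 0.046 and 0.036, and the share of rises among called genes from 57.8%, 53.4% and 58% to 16.6%, 31.6% and 13.4%. Centring on array medians made that share 77.1% in 3T3-L1 (median 0.256), reference genes without Pgk1 22.5%, 30.4% and 35.1%, and citric acid cycle genes 24.9%, 81.2% and 49.4%. In PMEF against 3T3-L1, ES against 3T3-L1 and ES against PMEF the share was 44.6%, 47.1% and 55.4%, and ran from 23.6% to 89.1%, 21.7% to 78.5% and 15.1% to 57.6% over the centrings. With the reference genes, Bckdha in 3T3-L1 turned to -0.29 and, in ES, Bcat2 to -0.19 and Pcca to -0.37 against eWAT, and Acadsb in ES against PMEF to -0.05. There, 1 gene rose in ES against eWAT and 6 in ES against PMEF. With median centring, Dbt in ES against 3T3-L1 turned to -0.20 and 8 genes fell there, where rises were 21.7% of all called genes. With citric acid cycle centring, Acadsb and Pccb in PMEF against 3T3-L1 turned to 0.15 and 0.09, Acadsb in ES against PMEF to -0.08, 3 rose and 3 fell in ES against 3T3-L1, and 6 rose in ES against PMEF. In that setting rises were 78.5% of all called genes in ES against 3T3-L1 and 15.1% in ES against PMEF. Without Pgk1, 2 rose in ES against 3T3-L1, where rises were 70.1% of all called genes. Both these centrings were chosen after seeing the data. The cause of these changes was not tested.

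Leaving out 1 array gave 3 to 4 rises and 6 falls in 3T3-L1, 10 falls in PMEF, and 2 to 3 rises and 5 to 6 falls in ES against eWAT. It gave 9 falls and 1 rise in PMEF and 5 falls and 1 rise in ES against 3T3-L1, and 9 to 10 rises in ES against PMEF. The subunit tests passed in all 75 refits, with adjusted exact permutation p of 0.000162 for Pcca minus Pccb and Bckdha minus Bckdhb without any 1 array, 0.000731 to 0.00188 for Bckdha minus Dbt, 0.00122 to 0.00578 for Bckdhb minus Dbt and 0.000433 to 0.00188 for Mccc1 minus Mccc2. Arrays with the same replicate number in different groups correlated in their deviations at -0.137 to 0.108 (median -0.008), and 1 of 12 arrays correlated best with its own number, so the numbers were not taken to pair samples. A replicate block ended 2 calls, Bcat2 in ES against eWAT (0.23, adjusted p = 0.0511) and Acadsb in ES against PMEF (0.22, 0.0543). Permuting within replicate numbers, the paired form of the subunit tests, gave 0.00289 to 0.00521. No detection calls were used, so how far a gene lay above background was not assessed.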

Other observations

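Of 12 measured genes that equip these enzymes with biotin, lipoate or vitamin B12 or take their electrons, 6 rose and 3 fell in 3T3-L1, 1 rose and 6 fell in PMEF, and 4 rose and 1 fell in ES against eWAT, with medians of 0.40, -0.26 and 0.12 (-0.04 and -0.30 in 3T3-L1 and ES when the reference genes set the level). Of all genes, 30.8%, 24.7% and 28.8% rose and 22.5%, 21.6% and 20.9% fell in 3T3-L1, PMEF and ES, so the ES count of rises lies near the share of all genes. Lias, which makes the lipoyl group carried by DBT, was at 9.04, 9.09 and 9.10 in 3T3-L1, 8.67, 8.68 and 8.76 in ES, 8.13, 8.13 and 8.07 in PMEF and 8.08, 7.86 and 8.0 in eWAT. It rose by 1.09 ± 0.071 in 3T3-L1 and 0.72 ± 0.071 in ES (log2, SE, n = 3 per group) and was at 0.13 ± 0.071 in PMEF (limma adjusted p = 0.153). Btd, which recycles biotin, fell by 0.74 ± 0.099 in 3T3-L1 and 0.55 ± 0.099 in ES and was at -0.19 ± 0.099 in PMEF (adjusted p = 0.145). Etfa, an electron acceptor of acyl-CoA dehydrogenases such as IVD and ACADSB, fell by 0.69 ± 0.073 in PMEF and was at 0.17 ± 0.073 in 3T3-L1 (adjusted p = 0.0722) and -0.18 ± 0.073 in ES (0.0537).

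Among related carboxylases and dehydrogenase complexes, 3, 0 and 1 of 9 genes rose and 3, 8 and 5 fell in 3T3-L1, PMEF and ES against eWAT. The shares over all genes were 30.8%, 24.7% and 28.8% for rises and 22.5%, 21.6% and 20.9% for falls. The counts in 3T3-L1 lie near these shares. List medians were -0.07, -0.57 and -0.19 in the same order, and the PMEF median equals that of the remaining pathway enzymes. Acacb and Acaca encode acetyl-CoA carboxylases. Acacb was at -2.35 ± 0.087, -2.81 ± 0.087 and -2.36 ± 0.087, each called, and Acaca fell by 1.95 ± 0.067, 1.22 ± 0.067 and 1.16 ± 0.067. Pcx, the pyruvate carboxylase, fell by 0.56 ± 0.067, 1.24 ± 0.067 and 0.86 ± 0.067. For the pyruvate dehydrogenase subunit Pdhb, a sister of Bckdhb, the values were 0.32 ± 0.075, -0.41 ± 0.075 and -0.11 ± 0.075, the last not passing (adjusted p = 0.262) and the first at -0.12 under reference gene centring.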
